A study of Mus musculus with 12 samples.

Results

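The transcripts of 10 genes that mark mast cells, basophils and their progenitors were followed in the bone marrow LK cells of 12 mice. The genes were taken by name from the count table, in which they are 10 of 55291 genes: Fcer1a, Ms4a2, Fcer1g, Hdc, Cpa3, Mcpt8, Prss34, Gzmb, Cma1 and Tpsb2. LK cells are marrow cells without the surface markers of mature lineages and with the stem cell factor receptor cKit, and hold blood stem cells and progenitors. All mice were C57BL/6, and 3 mice at 12 months of age were used for each of 4 genotypes: WT, Kdm6bΔ/+ (1 allele of the histone demethylase gene Kdm6b removed), Asxl1Y588XTg (a transgene for a truncated ASXL1 protein, at a preleukemic stage), and Asxl1Y588XTg Kdm6bΔ/+ (both changes, the double mutation of the sample labels). The allele was removed in the study with Mx1Cre, a Cre that interferon switches on in blood cells and in other responsive tissues, after the mice had received the interferon inducer pI:pC. Whether the mice without the deletion also received Cre or pI:pC before RNA was taken is not given in the sources used here.

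Mast cells and basophils are granulocytes that carry FcεRI, the high-affinity receptor for IgE, and release histamine and proteases from their granules when bound IgE is crosslinked by antigen. Both arise in the marrow from progenitors that express GATA2. Basophils finish their maturation there, whereas mast cell progenitors leave for the tissues and acquire most of their granule proteases after arrival. FcεRI consists of an α chain that binds IgE, a β chain that amplifies the signal, and a γ chain that is shared with other Fc receptors of myeloid cells.

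The DNA next to the start of a gene shows which of these genes carry the word read by GATA factors. RefSeq promoter windows (GRCm38.p6, the assembly named mm10 by the authors) of 300 bases, 250 before the start and 50 after it, were found for 9 of the 10 genes. The word AGATAA was searched on both strands together with its variants that start with T, end in G, or do both, and the matches found here did not overlap. At least 1 word was present in the windows of 6 of the 9 genes (Cpa3, Prss34, Ms4a2, Fcer1a, Hdc and Cma1), whereas 29.8% of all 32851 windows held one. Cpa3 and Prss34 hold a single word that begins 46 and 31 bases before the start, and Ms4a2 holds 3. The windows of Fcer1g, Mcpt8 and Gzmb hold none of these words. The 250 bases before the start are shown for the 4 genes with AGATAA, read along the strand of the gene, as examples of the word in 2 protease genes and in the α and β chains of the receptor. Capitals mark the GATA word, which reads TTATCT where it lies on the opposite strand. The sequences are chr3:20242182-20242431 (Cpa3, minus strand), chr17:25298144-25298393 (Prss34, plus strand), chr1:173227230-173227479 (Fcer1a, minus strand) and chr19:11623720-11623969 (Ms4a2, minus strand).
Cpa3: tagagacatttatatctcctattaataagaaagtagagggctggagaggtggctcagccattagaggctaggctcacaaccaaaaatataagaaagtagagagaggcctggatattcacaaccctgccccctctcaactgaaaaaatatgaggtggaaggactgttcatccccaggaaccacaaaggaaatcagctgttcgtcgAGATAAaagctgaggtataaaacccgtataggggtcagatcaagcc
Prss34: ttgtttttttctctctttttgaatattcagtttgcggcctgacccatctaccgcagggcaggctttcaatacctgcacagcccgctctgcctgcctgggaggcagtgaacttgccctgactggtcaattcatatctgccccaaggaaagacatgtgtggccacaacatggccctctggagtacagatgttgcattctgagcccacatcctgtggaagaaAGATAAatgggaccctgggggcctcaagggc
Fcer1a: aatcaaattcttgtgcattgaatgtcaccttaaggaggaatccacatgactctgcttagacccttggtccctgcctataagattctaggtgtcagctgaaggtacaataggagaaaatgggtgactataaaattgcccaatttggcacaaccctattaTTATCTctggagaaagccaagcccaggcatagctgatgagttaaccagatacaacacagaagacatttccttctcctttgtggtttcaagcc
Ms4a2: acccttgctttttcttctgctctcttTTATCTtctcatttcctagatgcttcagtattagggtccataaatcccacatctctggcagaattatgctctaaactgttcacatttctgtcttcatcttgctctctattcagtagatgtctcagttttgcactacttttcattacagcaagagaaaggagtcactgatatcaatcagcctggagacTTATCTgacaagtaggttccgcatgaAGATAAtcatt
A match is a string of letters in a window and was not tested for binding.

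The 12 libraries held between 14451522 and 23482563 counted reads, and 8 of the 10 genes passed the filter on low counts. The cell label was checked against marker genes. Kit, which encodes cKit, had from 5029 to 8384 reads in every library, whereas Ngp, a granule gene of maturing neutrophils, had from 207622 to 347684, so neutrophil transcripts were abundant in all of them. Kdm6b was lower in every Kdm6bΔ/+ mouse than in every WT mouse (1499 ± 141 against 2128 ± 252 normalized reads, mean ± SD, n = 3) and lower in every Asxl1Y588XTg Kdm6bΔ/+ mouse than in every Asxl1Y588XTg mouse (1810 ± 141 against 2253 ± 59.7). Neither difference passed the threshold (adjusted p = 0.279 and 0.0717, edgeR quasi-likelihood test over all genes tested). Y-linked transcripts were present in 2 Kdm6bΔ/+ mice, 1 Asxl1Y588XTg mouse and all 3 double mutant mice, and in no WT mouse. With a term for them, 0 of the 8 genes were called in any comparison. Of all 15825 genes this fit called 329 higher and 8 lower in Asxl1Y588XTg against WT, and 5 and 43 in the double mutant against Asxl1Y588XTg. It called 6 and 0 in Kdm6bΔ/+ against WT, 3 and 0 in the double mutant against WT, and 0 in the interaction. WT mouse 2 stood apart from its group, with a chi-square per gene of 30.8 and 26.0 against the other WT mice, where the other pairs of mice of 1 genotype had 7.40 to 18.0. Normalized reads are counts scaled to the mean library size. In bulk LK cells, fewer cells of a type and less RNA per cell cannot be told apart.

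Set per kb of exon, the genes covered a range from the common γ chain down to mature mast cell proteases at a few reads. Fcer1g was highest at 177 CPM per kb over the 12 mice and exceeded every other gene in every mouse. Hdc, which encodes the histidine decarboxylase that makes histamine and is also expressed by myeloid progenitors, followed at 44.9 CPM per kb. Prss34 and Mcpt8, both basophil proteases, lay at 36.2 and 34.4 CPM per kb. Their order was not fixed, since Prss34 was above Mcpt8 in 5 of 12 mice, and Hdc was above Prss34 in 10 of 12. Cpa3, the mast cell carboxypeptidase, was at 21.2 CPM per kb and below Mcpt8 in all 12 mice. The 2 further receptor chains were lower, Fcer1a at 11.5 and Ms4a2 at 5.15 CPM per kb, in this order in all 12 mice. Gzmb was at 1.10 CPM per kb, below Ms4a2 in all 12 mice. Cma1 and Tpsb2, at 0.0679 and 0.0538 CPM per kb, were not separable from each other. The 10 genes together made up between 0.0465% and 0.0695% of the counted reads of a library, and Hdc and Fcer1g supplied most of this share in each.

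**Figure D1:**
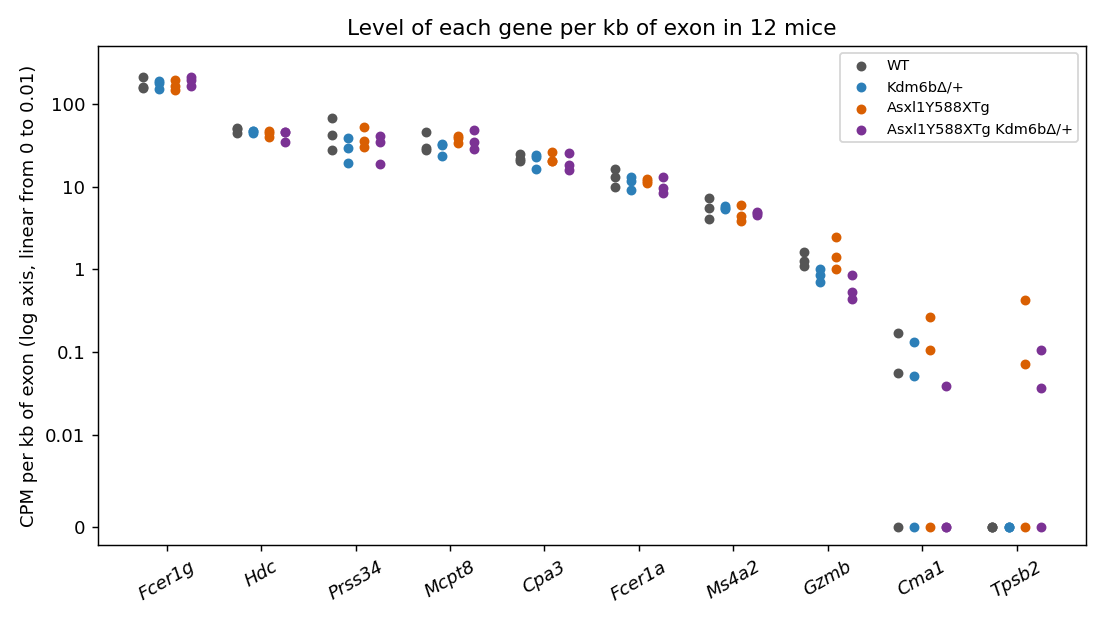
Level of each of the 10 genes per kb of exon (CPM per kb, log axis that is linear between 0 and 0.01) with 1 point per mouse, coloured by genotype. Fcer1g lies above 100 in every mouse, 6 genes lie between 3 and 70, and Cma1 and Tpsb2 sit at or near 0.

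The 3 chains of FcεRI had overlapping levels in the groups of each of the 4 comparisons tested. Fcer1a, the IgE-binding α chain, had 227, 286 and 171 normalized reads in the WT mice, 226, 158 and 202 in Kdm6bΔ/+, 195, 218 and 204 in Asxl1Y588XTg, and 145, 168 and 226 in Asxl1Y588XTg Kdm6bΔ/+. The highest and the lowest WT mouse enclosed all of the Asxl1Y588XTg values. For Asxl1Y588XTg against WT, Fcer1a had a log2 fold change of -0.15 ± 0.20 (SE, adjusted p = 0.907), and for the double mutant against Asxl1Y588XTg of -0.18 ± 0.17 (adjusted p = 0.676). Ms4a2, the β chain, had 199, 362 and 273 normalized reads in WT, 270, 288 and 267 in Kdm6bΔ/+, 293, 189 and 219 in Asxl1Y588XTg, and 223, 234 and 244 in Asxl1Y588XTg Kdm6bΔ/+. The spread was narrow in both groups with the Kdm6b deletion (SD 11.1 and 10.8) and wide in the other two (81.6 in WT and 53.3 in Asxl1Y588XTg). Each Kdm6bΔ/+ mouse was above each double mutant mouse, a pair of groups that was not tested, and all other groups overlapped. The share of all genes without overlap was not counted for this pair, and was 8.94% to 21.2% in the 4 comparisons tested. The log2 fold change of Ms4a2 was -0.25 ± 0.24 in Asxl1Y588XTg against WT (adjusted p = 0.862) and 0.02 ± 0.16 in the double mutant against Asxl1Y588XTg (adjusted p = 0.973).

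Fcer1g, the γ chain, had 2414, 3235 and 2462 normalized reads in WT, 2748, 2904 and 2303 in Kdm6bΔ/+, 2987, 2525 and 2263 in Asxl1Y588XTg, and 2517, 3000 and 3256 in Asxl1Y588XTg Kdm6bΔ/+. Its highest mouse was 1.44 times its lowest, the smallest such ratio of the 10 genes, and its highest value was in a double mutant mouse. Its log2 fold change was -0.06 ± 0.14 in Asxl1Y588XTg against WT (adjusted p = 0.943) and 0.19 ± 0.13 in the double mutant against Asxl1Y588XTg (adjusted p = 0.530). The γ chain is transcribed in many myeloid cells and is not particular to mast cells or basophils.

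Hdc had 5733, 5630 and 5022 normalized reads in WT, 5200, 5258 and 5002 in Kdm6bΔ/+, 5201, 4500 and 4995 in Asxl1Y588XTg, and 3838, 5125 and 5080 in Asxl1Y588XTg Kdm6bΔ/+. The group means stepped from 5462 ± 384 in WT to 5153 ± 134, 4899 ± 360 and 4681 ± 730 (SD, n = 3 each), but 1 or more mice of each mutant genotype fell within the WT range. Of the 8 mast cell and basophil genes tested in Asxl1Y588XTg against WT, Hdc had the smallest adjusted p, 0.673, with a log2 fold change of -0.16 ± 0.09. Hdc is also the best measured of the genes, and the 95% confidence interval of this change reached from -0.35 to 0.04.

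The levels of the proteases Cpa3, Mcpt8 and Prss34 overlapped in each of the 4 comparisons tested. Cpa3 had 541, 665 and 570 normalized reads in WT, 635, 433 and 599 in Kdm6bΔ/+, 691, 541 and 539 in Asxl1Y588XTg, and 429, 490 and 670 in Asxl1Y588XTg Kdm6bΔ/+. The WT and Asxl1Y588XTg means were 592 ± 65.0 and 590 ± 87.1, with a log2 fold change of -0.01 ± 0.13 (adjusted p = 0.997). Mcpt8 had 519, 796 and 481 normalized reads in WT, 571, 409 and 555 in Kdm6bΔ/+, 681, 709 and 583 in Asxl1Y588XTg, and 497, 605 and 840 in Asxl1Y588XTg Kdm6bΔ/+. Its mean was 599 ± 172 in WT and 658 ± 66.1 in Asxl1Y588XTg, a log2 fold change of 0.13 ± 0.18 (adjusted p = 0.912). Each Kdm6bΔ/+ mouse was below each Asxl1Y588XTg mouse for Mcpt8, a pair of groups that was not tested and for which the share of all genes without overlap was not counted. For Mcpt8 the double mutant differed from Asxl1Y588XTg by -0.01 ± 0.20 (adjusted p = 0.988).

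Prss34, which encodes the basophil protease mMCP-11, had the widest spread of the genes above 100 normalized reads, 3.62-fold from 399 in a double mutant mouse to 1443 in WT mouse 2. The other WT mice had 895 and 586 normalized reads, the Kdm6bΔ/+ mice 828, 413 and 620, the Asxl1Y588XTg mice 1130, 639 and 763, and the remaining double mutants 734 and 876. All genotypes overlapped. The log2 fold change was -0.66 ± 0.42 in Kdm6bΔ/+ against WT (adjusted p = 0.9999) and -0.21 ± 0.37 in Asxl1Y588XTg against WT (adjusted p = 0.932). The first ran from -0.91 to -0.26 with single libraries left out, the latter without WT mouse 2, and was -0.43 without Kdm6bΔ/+ mouse 2. The second turned to 0.19 without WT mouse 2.

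Gzmb, the granzyme B gene that cytotoxic lymphocytes and mast cells can transcribe, was the single gene of the 10 with separate groups in the 4 comparisons tested. It had 32, 40 and 28 normalized reads in WT, 25, 22 and 18 in Kdm6bΔ/+, 62, 25 and 35 in Asxl1Y588XTg, and 13, 11 and 22 in Asxl1Y588XTg Kdm6bΔ/+. Each double mutant mouse was below each Asxl1Y588XTg mouse and each WT mouse, and each Kdm6bΔ/+ mouse was below each WT mouse. In the untested pair of Kdm6bΔ/+ and Asxl1Y588XTg, the highest Kdm6bΔ/+ mouse (25.14) lay just below the lowest Asxl1Y588XTg mouse (25.16). In Asxl1Y588XTg Kdm6bΔ/+ against Asxl1Y588XTg, the log2 fold change was -1.41 ± 0.42 with a 95% confidence interval from -2.32 to -0.49. Its unadjusted p of 0.00614 became 0.123 after adjustment over all genes tested (edgeR), and therefore Gzmb was not called. The raw counts behind it were small, 18, 11 and 21 reads in the double mutants against 62, 25 and 35. Without Asxl1Y588XTg mouse 1, which had the highest value, the log2 fold change was -0.97 (adjusted p = 0.318), and with no filter on low counts it was -1.40 with an adjusted p of 0.00785, which passed the threshold. That setting called more genes in general, with 665 of 32704 genes called lower in this comparison.

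The log2 fold change of Gzmb was -1.11 ± 0.44 in the double mutant against WT (adjusted p = 0.686) and -0.63 ± 0.42 in Kdm6bΔ/+ against WT (adjusted p = 0.9999). Transcripts of T and NK cells were listed beside it because these cells also transcribe Gzmb. In the double mutant against Asxl1Y588XTg, 11 of 12 T and NK cell genes had a log2 fold change below 0, with a median of -0.93 beside -0.0043 over all genes, and 0 of 12 were called lower beside 1.59% of all genes. Trac, a T cell receptor gene, and Klrb1c, an NK cell receptor gene, had groups without overlap, with log2 fold changes of -2.02 (adjusted p = 0.0921) and -1.26 (adjusted p = 0.273). Groups without overlap were seen for 21.2% of all genes in this comparison, and Trac had only 1 to 35 reads in a library and Klrb1c 23 to 176. The summed level of the 12 genes was 3592 to 5129 normalized reads in Asxl1Y588XTg and 3398 to 4062 in the double mutant, most of it from Nkg7. Summed levels were 4258 to 4381 in WT and 3908 to 4910 in Kdm6bΔ/+. Taken gene by gene, the 12 were also mostly lower in Kdm6bΔ/+ against WT (median -0.57 in log2, 1 above 0). Of the 12, 4 had an unadjusted p under 0.05, all lower, beside 3.49% of all genes. For the double mutant against WT the median was -0.42, with 3 above 0 and 4 lower at this p, beside 6.79% of all genes. In Asxl1Y588XTg against WT the median was 0.33, with 8 above 0. In these comparisons 0 of the 12 were called. Of the T cell genes, Cd3d had 25 to 90 reads in a library, Cd3g 3 to 63 and Cd3e 0 to 17, and of the NK cell genes, Ncr1 had 37 to 303. The part of these cells in the level of Gzmb was not tested.

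Proteases of mature mast cells were at the limit of detection. Cma1, which encodes the chymase mMCP-5, had 0, 3 and 1 reads in WT, 2, 1 and 0 in Kdm6bΔ/+, 5, 0 and 2 in Asxl1Y588XTg, and 1, 0 and 0 in the double mutant. Tpsb2, a mast cell tryptase, had no read in the 6 WT and Kdm6bΔ/+ mice, 12, 2 and 0 reads in Asxl1Y588XTg, and 0, 3 and 1 in the double mutant. A library with 0 reads allows up to 3. Of the 14 Tpsb2 reads in Asxl1Y588XTg, 12 came from mouse 1. The groups were therefore not ordered, and no fold change is given. Asxl1Y588XTg mouse 1 had the highest value of Cma1, Tpsb2, Gzmb and Cpa3. The chymase gene Mcpt4 had 3 reads in all 12 libraries, and Tpsab1, Tpsg1, Cma2, Mcpt1, Mcpt9, Mrgprb1 and Mrgprb2 had 0. Mcpt2, a protease of mucosal mast cells, had 10 reads, all in WT mouse 1. Tpsb2 and Tpsab1 are related tryptase genes, and any reads shared between them may not have been assigned to either.

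**Figure D2:**
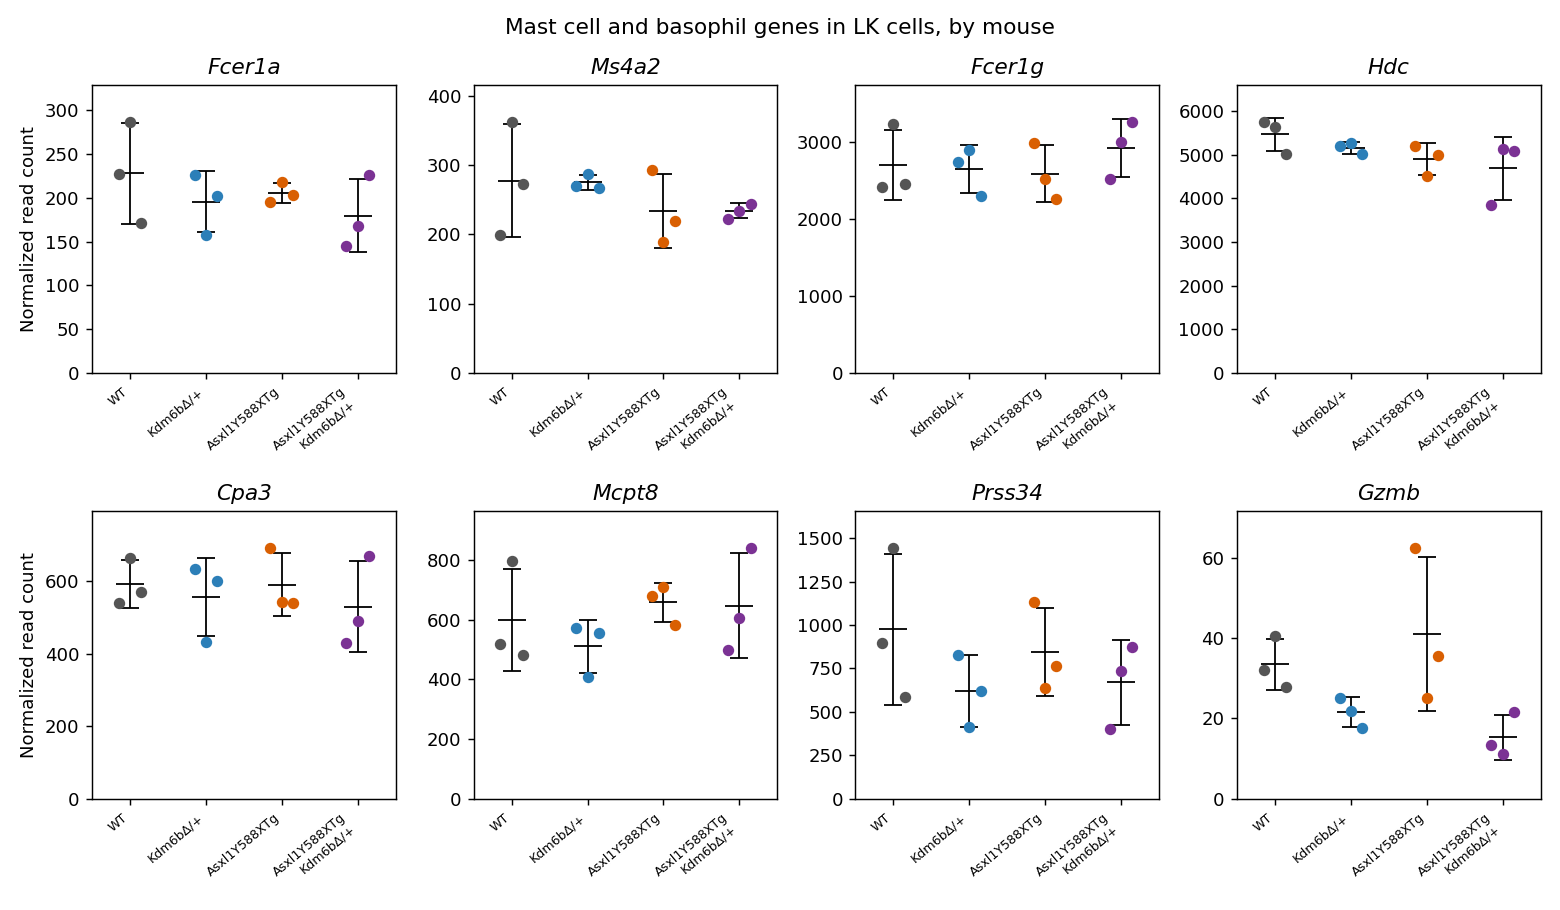
Normalized read counts (axis from 0) of the 8 genes that passed the filter, with 1 point per mouse and bars for the mean ± SD of 3 mice per genotype. In the Gzmb panel the 3 double mutant mice (11 to 22) lie below the 3 Asxl1Y588XTg mice (25 to 62). In the other panels the groups of the 4 comparisons tested overlap.

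The comparison of Asxl1Y588XTg with WT asks whether truncated ASXL1 altered these transcripts. Calls required an adjusted p under 0.05 together with a fold change over 1.5. Of the 8 genes tested, 0 were called higher and 0 lower, where 1.58% and 0.0316% of all 15825 genes were, and 0 had an unadjusted p under 0.05, where 9.35% of all genes did. None of the 8 had groups that did not overlap, which 15.7% of all genes had. The median log2 fold change was -0.11 for the 8 genes and -0.01 for all. The intervals limit what could have been missed: those of Cpa3, Fcer1g, Hdc and Mcpt8 lay within 1.5-fold of no change, and those of Fcer1a and Ms4a2 within 2-fold. The intervals of Prss34 and Gzmb reached beyond 2-fold.

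The comparison of Asxl1Y588XTg Kdm6bΔ/+ with Asxl1Y588XTg asks what loss of 1 Kdm6b allele does on the transgenic background, and uses the same Asxl1Y588XTg libraries as the comparison with WT. Of the 8 genes, 0 were called higher (0.145% of all genes) and 0 lower (1.59% of all genes). Gzmb was the single gene with an unadjusted p under 0.05, 1 of 8 beside 15.4% of all genes, and the single one with groups that did not overlap, 1 of 8 beside 21.2%. The median over the 8 genes was -0.10 (log2), against -0.0043 over all genes. The intervals of Cpa3, Ms4a2, Fcer1a, Fcer1g, Mcpt8 and Hdc all lay within 1.5-fold of no change.

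In Kdm6bΔ/+ against WT, the deletion without the transgene, the 8 genes had log2 fold changes from -0.66 for Prss34 to -0.01 for Ms4a2. All 8 were below 0 with a median of -0.16, against -0.0032 over all genes, and all 8 intervals held 0. Of the 8, 0 were called higher and 0 lower (0.0758% and 0.019% of all genes), and 0 had an unadjusted p under 0.05 (3.49% of all genes). The groups did not overlap for Gzmb alone, 1 of 8 genes beside 8.94% of all. The intervals of Cpa3, Ms4a2, Fcer1g and Hdc lay within 1.5-fold of no change.

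In Asxl1Y588XTg Kdm6bΔ/+ against WT, which shares its libraries with the comparisons above, 0 of the 8 genes were called higher and 0 lower (0.145% and 0.0695% of all genes). Y-linked transcripts were present in every double mutant mouse and in no WT mouse, so genotype and their presence cannot be told apart in this comparison. Gzmb again had the single unadjusted p under 0.05, 0.0297, beside 6.79% of all genes, and the single pair of groups without overlap, beside 13.5%. The log2 fold changes otherwise ran from -0.53 ± 0.41 for Prss34 to 0.13 ± 0.13 for Fcer1g, with a median of -0.22 against -0.00033 over all genes. The intervals of Cpa3, Fcer1g and Hdc lay within 1.5-fold of no change. In DESeq2 on the same libraries 0 of the 8 genes were called in any of the 4 comparisons. Of all genes it called 456 higher and 17 lower of 15505 in Asxl1Y588XTg against WT, and 55 and 391 of 15198 in the double mutant against Asxl1Y588XTg. It called 24 and 15 of 15814 in Kdm6bΔ/+ against WT, and 74 and 40 of 15824 in the double mutant against WT.

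**Figure D3:**
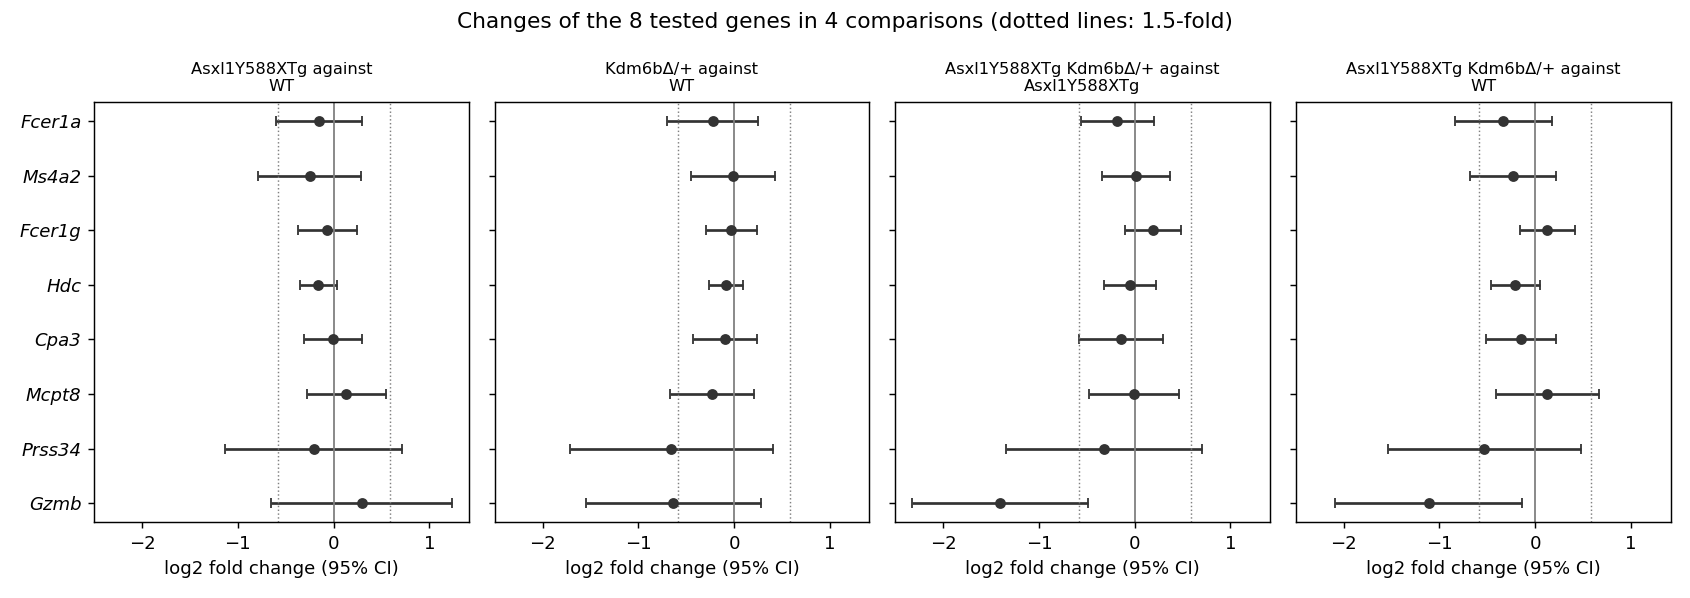
Log2 fold change of the 8 tested genes in the 4 comparisons, with points for the estimate, bars for the 95% confidence interval and dotted lines at 1.5-fold. The intervals of Prss34 and Gzmb are the widest, and the intervals exclude 0 only for Gzmb in both comparisons of the double mutant.

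An interaction term over the 12 libraries set what the Kdm6b deletion did on the transgenic background against what it did in WT. It was called for 0 of the 8 genes, while 0% of all genes were called above 0 and 0.0126% below, and 0 of the 8 had an unadjusted p under 0.05 (6.87% of all genes). The interaction was closest to 0 for Ms4a2 (0.01 ± 0.27), Hdc (0.02 ± 0.14) and Fcer1a (0.03 ± 0.29, all log2). It was farthest from 0 for Gzmb, at -0.79 with a 95% confidence interval from -2.02 to 0.44 (adjusted p = 0.826). For Prss34 the interval reached from -1.06 to 1.69, which is wider than 2-fold in both directions.

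Several of the genes varied together between mice, also with the genotype means subtracted. Over the 12 libraries, the log2 levels of Fcer1a and Prss34 had a Pearson r of 0.83, Cpa3 and Prss34 of 0.82, and Cpa3 and Fcer1a of 0.75 (Spearman's rho 0.78, 0.70 and 0.58). Mcpt8 had an r of 0.74 with Prss34, 0.71 with Cpa3 and 0.70 with Fcer1a. After subtraction of the genotype means, the r of Fcer1a and Mcpt8 was 0.93, and that of Prss34 with Cpa3, Mcpt8 and Fcer1a was 0.83, 0.83 and 0.82. These values pool the 4 genotypes, which did not all follow the trend. Among the Asxl1Y588XTg mice, the one with the highest Prss34 (1130) had the lowest Fcer1a (195). Without the 2 mice farthest from the median of Prss34 (WT mouse 2 and double mutant mouse 1), its r was 0.75 with Cpa3, 0.65 with Mcpt8 and 0.61 with Fcer1a. Mcpt8 has no GATA word in its window, unlike the 3 genes it varied with. Without subtraction of the genotype means, the other pairs were weaker, with a median r over all 28 pairs of 0.48 and the lowest value, 0.09, for Fcer1g and Gzmb. With the means subtracted, Fcer1g and Gzmb had an r of 0.66, and the lowest was 0.16 for Ms4a2 and Fcer1a. Prss34 with Hdc and Ms4a2 with Fcer1g then had 0.72, near the 0.73 of Cpa3 and Fcer1a. These values are a description over 12 libraries that share depth scaling and cell preparation. Double mutant mouse 1 was the lowest of 12 for 4 of the 8 genes (Cpa3, Fcer1a, Prss34 and Hdc), and WT mouse 2 was the highest for 3 (Ms4a2, Fcer1a and Prss34).

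**Figure D4:**
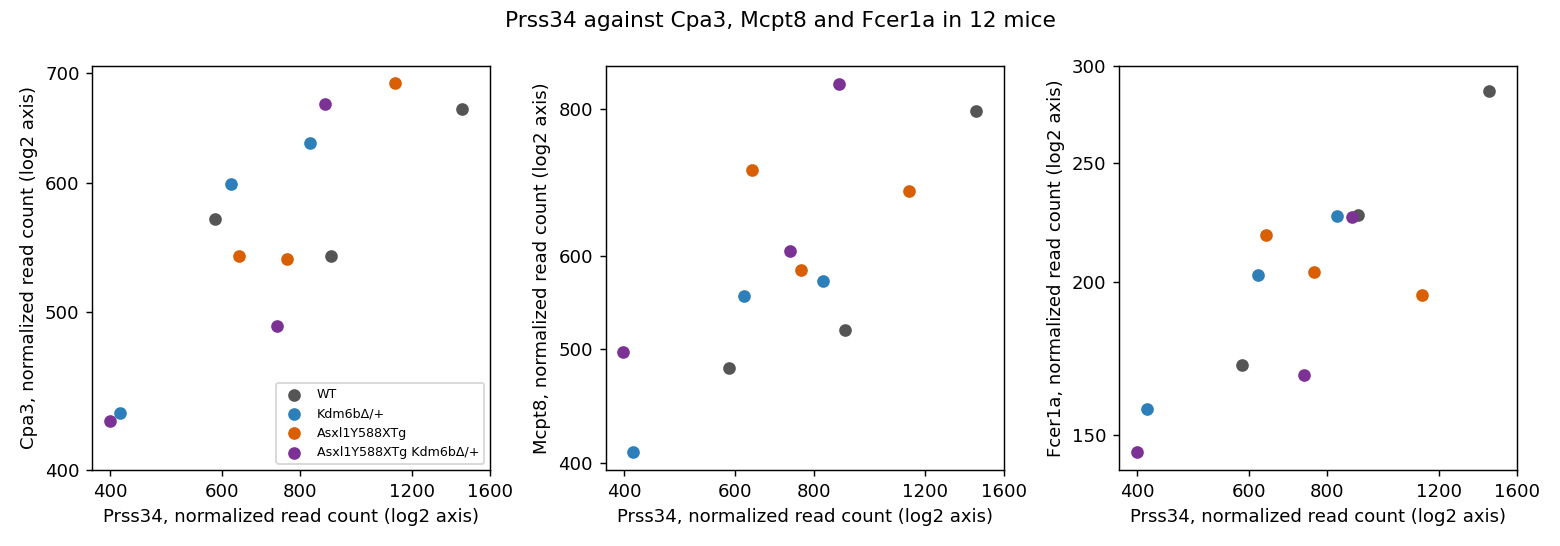
Normalized read counts of Cpa3, Mcpt8 and Fcer1a against Prss34 (log2 axes), 1 point per mouse, coloured by genotype. A double mutant mouse and a Kdm6bΔ/+ mouse lie at the low end of Prss34 (399 and 413) and WT mouse 2 at the high end (1443). The Asxl1Y588XTg mice depart from the rise for Fcer1a, which was lowest (195) in the mouse with their highest Prss34 (1130).

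Of the 9893 genes with a mean of at least 100 normalized reads, those with the pattern most like Cpa3 over the 12 libraries were Gramd3 (r = 0.90), Septin6 (0.84), Bin1 (0.83), Prss34 (0.82) and Lrp12 (0.78). Those most like Mcpt8 were Slc27a1 (0.85), Ankrd33b (0.84), Adam19 (0.84), Utrn (0.82) and Zfp608 (0.81). Prss34 was the single gene of the 10 among them. These genes were picked as the highest of 9893 values over 12 libraries, and whether they share a control with Cpa3 or Mcpt8 was not tested. On the chromosomes, Cma1, Mcpt8 and Gzmb lie in the protease cluster of chromosome 14, with gaps of 137490 and 173564 bases, and Prss34 and Tpsb2 lie 66139 bases apart on chromosome 17. Of the neighbours, Mcpt8 and Gzmb had an r of 0.30.

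Other genes of the pathway were read from lists of the signalling chain, the transcription factors, the receptors, the granule and the mediators. With the surface and eosinophil genes below, 68 genes of these lists were tested. Of the 68, 1 (Gata2) was called higher in Asxl1Y588XTg against WT, beside 1.58% of all genes. In the double mutant against Asxl1Y588XTg, 2 (Gata2 and Slc18a2) were called lower, beside 1.59% of all genes. Gata2, the transcription factor of mast cell and basophil progenitors that is also expressed in blood stem cells, had 1056, 736 and 1069 normalized reads in WT, 1539, 1669 and 1535 in Asxl1Y588XTg, 821, 616 and 870 in the double mutant and 590, 832 and 571 in Kdm6bΔ/+. Every Asxl1Y588XTg mouse was above every other mouse. Gata2 rose in Asxl1Y588XTg against WT by 0.73 ± 0.13 (log2, adjusted p = 0.0276) and fell in the double mutant against Asxl1Y588XTg by 1.02 ± 0.12 (adjusted p = 0.00686), in comparisons that share the Asxl1Y588XTg libraries. Markers of other cells moved with it. Of 10 stem and progenitor cell genes, 7 were called higher in Asxl1Y588XTg against WT (median log2 fold change 1.52) and 4 lower in the double mutant against Asxl1Y588XTg (median -1.14), beside 1.58% and 1.59% of all genes. Their summed level was 10486 to 11061 normalized reads in WT, 9912 to 10885 in Kdm6bΔ/+, 12692 to 15286 in Asxl1Y588XTg and 9874 to 11497 in the double mutant. Of 6 megakaryocyte genes tested, 1 was called higher and 0 lower (medians 1.46 and -0.81), and the summed level of all 7 on the list was 1594 to 2852 in WT, 1612 to 1998 in Kdm6bΔ/+, 4905 to 12847 in Asxl1Y588XTg and 3041 to 4639 in the double mutant. Their part in the level of Gata2 and of Slc18a2 was not tested. The call of the rise depended on single libraries. Its adjusted p was 0.0704 without WT mouse 3, and 0.0840, 0.112 and 0.0788 without Asxl1Y588XTg mouse 1, 2 or 3, and its log2 fold change was 0.57, under 1.5-fold, without WT mouse 2. With the replicate number as a block it was 0.0818. The fall had an adjusted p of 0.0573 without double mutant mouse 1 and of 0.0828 in a fit to all libraries with a term for Y-linked transcripts.

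Slc18a2, the vesicular transporter that loads histamine and serotonin into granules, had 398, 538 and 429 normalized reads in WT, 310, 373 and 417 in Kdm6bΔ/+, 795, 756 and 620 in Asxl1Y588XTg, and 377, 397 and 365 in the double mutant. It fell in the double mutant against Asxl1Y588XTg by 0.91 ± 0.10 (log2, adjusted p = 0.00308). In Asxl1Y588XTg against WT the log2 fold change was 0.67 ± 0.14 with an adjusted p of 0.0540, which did not pass the threshold. It passed in 5 of 13 alternatives, among them DESeq2 (adjusted p = 0.00340) and the fit without WT mouse 2 (0.0189). Pla2g4a, which releases arachidonic acid for lipid mediators, had an adjusted p of 0.0488 in the double mutant against Asxl1Y588XTg, but its log2 fold change of -0.31 was below 1.5-fold.

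The remaining lists held no called gene in any of the 4 comparisons. Of all genes, at most 1.58% were called higher and 1.59% lower in any of them, and 0 calls in lists this short lie near these shares. For FcεRI signalling, 0 of 12 genes were called, with median log2 fold changes from -0.04 to 0.06 in the 4 comparisons, and the kinase gene Syk had group means from 6584 in Kdm6bΔ/+ to 6889 normalized reads in Asxl1Y588XTg. Plcg2, the phospholipase downstream of it, had group means from 6307 to 6770, and the phosphatase gene Ptpn6 from 5119 to 5317. The kinase gene Fyn and the adaptor gene Lat, both also transcribed in T cells, had every Asxl1Y588XTg mouse above every WT and every double mutant mouse. Groups without overlap were seen for 15.7% of all genes in Asxl1Y588XTg against WT and for 21.2% in the double mutant against Asxl1Y588XTg. For Plcg1 every Asxl1Y588XTg mouse was also above every WT mouse, and for Btk below. For Fyn the log2 fold change was 0.57 ± 0.16 in Asxl1Y588XTg against WT (adjusted p = 0.174) and -0.54 ± 0.15 in the double mutant against Asxl1Y588XTg (adjusted p = 0.0990). For Lat these values were 0.73 ± 0.25 (adjusted p = 0.312) and -0.88 ± 0.23 (adjusted p = 0.0894). For growth factor and cytokine receptors, 0 of 11 were called, with medians from -0.02 to 0.13, and Kit, the receptor on which mast cells depend, had group means from 6091 to 6891. Il1rl1 had a log2 fold change of -0.50 ± 0.16 in Asxl1Y588XTg against WT (adjusted p = 0.268). It was the single receptor of the 11 with an unadjusted p under 0.05 in this comparison, beside 9.35% of all genes. Of the further transcription factors, 11 in number beside Gata2, 0 were called. For granule proteases and proteoglycan, 6 of 13 genes passed the filter and 0 were called, with medians from -0.07 to 0.04 and Srgn, the core of granule proteoglycan, between 12279 and 14829. For surface and secreted genes, 11 of 16 passed and 0 were called, with medians from -0.34 in Kdm6bΔ/+ against WT to 0.13 in Asxl1Y588XTg against WT. Among them Cd63, a granule membrane protein that reaches the surface on degranulation, had group means from 2522 to 2824 normalized reads. Rab27b had 267 to 532 normalized reads in Asxl1Y588XTg, above the WT mice (74 to 221) and the double mutants (156 to 207). Its log2 fold change in Asxl1Y588XTg against WT was 1.27 ± 0.41 (adjusted p = 0.294). It was the single gene of these 11 with an unadjusted p under 0.05 in this comparison, beside 9.35% of all genes. For mediators, 7 of 9 genes passed the filter, and Slc18a2 was the single one called.

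Eosinophils were the granulocytes nearest to these lineages in the lists, and their genes had lower values in Asxl1Y588XTg. Prg2, which encodes major basic protein, had 25966, 44356 and 29859 normalized reads in WT and 11636, 15026 and 20230 in Asxl1Y588XTg. Epx, the eosinophil peroxidase, had 9204, 16056 and 12156 in WT and 3025, 5680 and 7762 in Asxl1Y588XTg. For both genes each Asxl1Y588XTg mouse was below each WT mouse, in a comparison where 15.7% of all genes had groups without overlap. The log2 fold change was -1.10 ± 0.27 for Prg2 (adjusted p = 0.160), -1.02 ± 0.22 for Prg3 (adjusted p = 0.0750) and -1.19 ± 0.39 for Epx (adjusted p = 0.392), and 0 of the 9 eosinophil genes were called lower, beside 0.0316% of all genes. The median of the 9 was -1.10, beside -0.11 for the 8 mast cell and basophil genes, and 8 of the 9 had an unadjusted p under 0.05, where 9.35% of all genes did. Their summed level, most of it from Prg2, was 43035 to 73566 normalized reads in WT, 40415 to 53010 in Kdm6bΔ/+, 18620 to 34099 in Asxl1Y588XTg and 31232 to 37102 in the double mutant. In the double mutant against WT the median of the 9 was -0.73, and 2 of the 9, Siglecf and Ccr3, were above 0. Siglecf had 957 ± 324 normalized reads in the double mutant and 649 ± 69.2 in WT, and Ccr3 146 ± 19.6 and 126 ± 38.0 (SD, n = 3 each). With DESeq2, 3 of the 9 were called lower beside 17 of 15505 genes, and with all 12 libraries in 1 fit 3 of the 9 beside 16 of 15825. With no filter 1 of the 9 was called lower beside 28 of 32704 genes, and with the term for Y-linked transcripts 1 of the 9 beside 8 of 15825. Without Asxl1Y588XTg mouse 3, 1 of the 9 was called lower beside 5 of 15825. The mast cell and basophil genes had no call in the same fits.

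**Figure D5:**
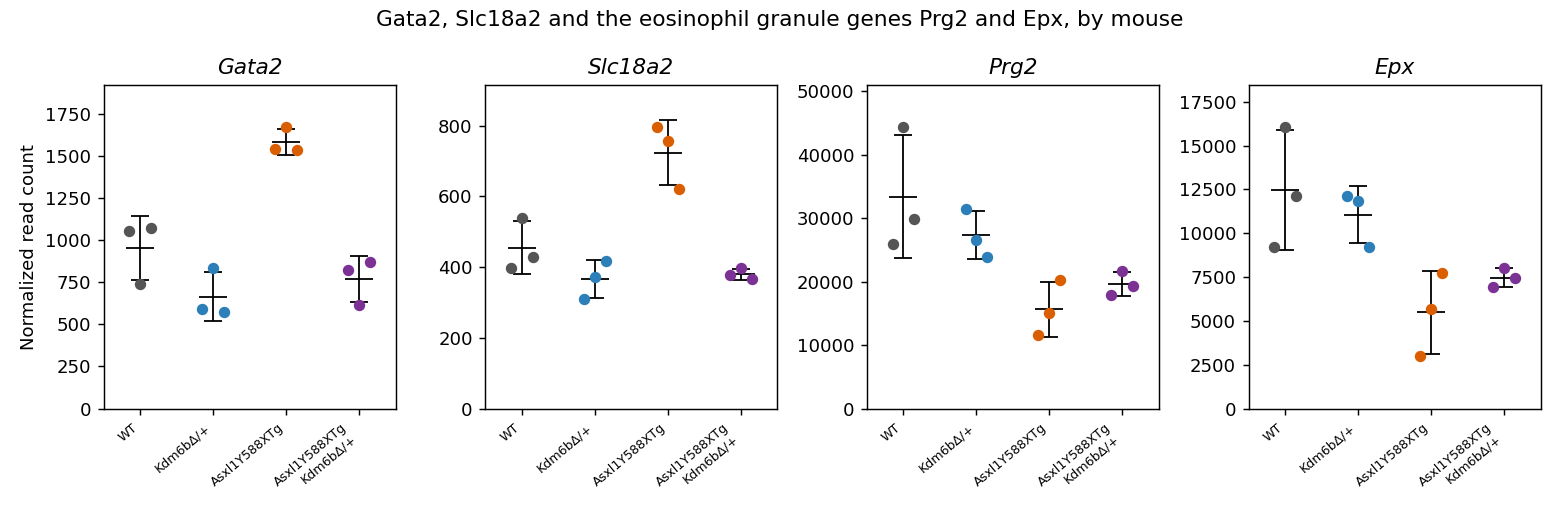
Normalized read counts (axes from 0) of Gata2, Slc18a2, Prg2 and Epx, with 1 point per mouse and bars for the mean ± SD of 3 mice. The 3 Asxl1Y588XTg mice lie above all others for Gata2 (1535 to 1669) and Slc18a2 (620 to 795), and below all WT mice for Prg2 and Epx.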

How the data were processed

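LK cell RNA from 12 mice was sequenced, with 1 library for each mouse. The authors used Trimmomatic for trimming, STAR for alignment to mm10 and HTSeq for counting, and deposited the raw count of 55291 genes. The annotation and strand setting of the counting are not given in the sources used here; the paper's methods and the labels name different kits (KAPA, NEB) and sequencers (HiSeq 3000, NextSeq 500). Columns were matched to genotypes by name. Gene lengths came from GENCODE vM21.

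The filterByExpr function of edgeR (4.0.16, R 4.3.3) kept 15825 genes with 99.86% of the counts. Each pair of genotypes was fitted with TMM scaling and the robust quasi-likelihood test on its 6 libraries, with the interaction on all 12, with Benjamini-Hochberg adjustment over all tested genes. Standard errors and 95% intervals came from the F statistic. Simulated counts were used to test the steps. Libraries came from individual mice.

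Named are the 10 genes, called genes of the pathway lists and otherwise up to 3 per list by level, the 5 genes most like Cpa3 and Mcpt8, Kdm6b, and marker genes beside a result, chosen after their values were seen (Prg2, Prg3, Epx, Nkg7, Cd3d, Cd3e, Cd3g, Ncr1, Trac, Klrb1c, Ngp, and Fyn and Lat of the signalling list). Siglecf, Ccr3, Plcg1, Btk, Il1rl1 and Rab27b were also chosen after their values were seen. The genes, lists and tests were chosen with earlier results of these data known. Same replicate numbers did not pair the libraries. Alternatives were DESeq2 (1.42.0), all 12 libraries in 1 fit, RLE scaling, no filter, the replicate block, only genes with a mean count of 50 or more, a term for Y-linked transcripts, and each library left out in turn.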

Additional observations from a re-analysis of the deposited data

How the results depend on the processing

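The count of the 8 tested genes called higher or lower was 0 in every alternative for Asxl1Y588XTg, Kdm6bΔ/+ and Asxl1Y588XTg Kdm6bΔ/+ against WT, for the interaction, and for genes called higher in the double mutant against Asxl1Y588XTg. It changed in 1 case: with no filter on low counts, 1 gene (Gzmb) was called lower in the double mutant against Asxl1Y588XTg, where 665 of all genes were called lower in place of 252. The count of all genes called lower in this comparison was 43 with the term for Y-linked transcripts, and that of all genes called higher in Asxl1Y588XTg against WT ran from 96 (replicate block) to 585 (no filter), with 250 as reported. Gzmb could not be tested with a mean count of at least 50. Cma1 and Tpsb2, tested only without the filter, were not called. With the replicate block 0 of the 8 genes were called in any comparison. Of all 15825 genes it called 96 higher and 5 lower in Asxl1Y588XTg against WT, and 13 and 58 in the double mutant against Asxl1Y588XTg. It called 17 and 5 in Kdm6bΔ/+ against WT, 46 and 20 in the double mutant against WT, and 0 and 2 in the interaction. The replicate numbers do not pair the libraries, since the deviations of libraries with the same number had a median r of -0.04 (from -0.12 to 0.08, 18 pairs) and those of other pairs 0.01 (from -0.14 to 0.18, 36 pairs).

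None of the log2 fold changes that changed sign was called on either side. Cpa3 in Asxl1Y588XTg against WT was 3.5e-05 with a mean count of at least 50. Mcpt8 in the double mutant against Asxl1Y588XTg was 0.0029 with DESeq2 and 0.0012 with RLE scaling. With the replicate block Ms4a2 was 0.022 in Kdm6bΔ/+ against WT and -0.00056 in the interaction. With the term for Y-linked transcripts, Hdc was 0.010 in the double mutant against Asxl1Y588XTg, Ms4a2 0.16 and Fcer1g 0.056 in Kdm6bΔ/+ against WT, and Ms4a2 0.018 and Mcpt8 -0.20 in the double mutant against WT. With single libraries left out, the log2 fold changes in Asxl1Y588XTg against WT ran from -0.13 to 0.087 for Cpa3, -0.32 to 0.045 for Fcer1a, -0.18 to 0.087 for Fcer1g, -0.14 to 0.55 for Gzmb and -0.48 to 0.19 for Prss34. In Kdm6bΔ/+ against WT they ran from -0.19 to 0.059 for Cpa3, -0.10 to 0.12 for Fcer1g, -0.35 to 0.032 for Mcpt8 and -0.21 to 0.23 for Ms4a2. In the double mutant against Asxl1Y588XTg they ran from -0.12 to 0.080 for Hdc, -0.24 to 0.16 for Mcpt8 and -0.12 to 0.21 for Ms4a2, and against WT from -0.11 to 0.38 for Mcpt8 and -0.43 to 0.0075 for Ms4a2. In the interaction they ran from -0.26 to 0.067 for Cpa3, -0.17 to 0.19 for Fcer1a, -0.040 to 0.14 for Hdc, -0.056 to 0.36 for Mcpt8, -0.22 to 0.21 for Ms4a2 and -0.078 to 0.59 for Prss34. The cause was not tested. With 3 mice per genotype, Prss34 and Gzmb had intervals wider than 2-fold in every comparison, and Gzmb had at most 62 reads in a library.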
